A study of Bos taurus with 138 samples.

Results

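Gamma-tubulin and the proteins that hold it in a ring or bring it to a spindle pole were followed through bovine oocyte maturation and early cleavage. The 10 genes were TUBG1, TUBGCP2, TUBGCP3, TUBGCP4, TUBGCP5, TUBGCP6, PCNT, CEP192, CDK5RAP2 and NEDD1. They were taken by symbol from a table of 16706 genes, with no threshold on a measured value, and all 10 were found and passed the filter on low counts.

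Oocytes and embryos of 6 stages were compared: germinal vesicle (GV) oocytes, oocytes matured in vitro to metaphase II (MII), and 2-cell embryos, 8-cell embryos, morulae and blastocysts. The oocytes came from cattle ovaries collected at slaughter and were stripped of cumulus cells, and the embryos were fertilised in vitro with semen of a single Holstein bull and cultured. No group carried a genetic change. Every stage was exposed to cycloheximide, which holds ribosomes on mRNA, before lysis. At each stage 2 lysates (A and B) were run through a sucrose gradient cut into 10 fractions, F1 to F10, and 3 whole transcriptomes (A, B and C) were made, 138 libraries in all. F1 and F2 hold free RNA by the study's classification, F3 to F5 monosomes, F6 and F7 an intermediate zone and F8 to F10 polysomes. Each library pooled many oocytes or embryos, so none of the values belongs to a single cell, and in such bulk libraries fewer cells of a type and less RNA per cell cannot be told apart. P-values of the group comparisons rest on 2 or 3 libraries a group, with 1 estimate of the spread per gene shared by all groups. P-values of the trends along the gradients come from permuting the fraction numbers, and those fractions come from only 2 lysates a stage. All material came from 1 production system, and the embryos from 1 sire.

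Microtubules are nucleated by the gamma-tubulin ring complex, in which gamma-tubulin is carried on a cone of gamma-tubulin complex proteins. TUBGCP2 and TUBGCP3 form the small complex that is repeated around the ring, TUBGCP4, TUBGCP5 and TUBGCP6 are found in the assembled ring, and NEDD1, CDK5RAP2, PCNT and CEP192 attach or activate rings at centrosomes and spindles. Mammalian oocytes lose their centrioles during growth and build the meiotic spindle without them, and in cattle a centriole is brought back by the sperm at fertilization.

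Totals ranged from 1229382 to 17342859 counts over the 120 fraction libraries and from 3269386 to 11812567 over the 18 transcriptomes. The lowest fraction totals were 1229382 in morulae, 1607843 in blastocysts and 4359269 in 8-cell embryos, and a low count in a single fraction of these stages is less certain than in the others. For the polysome comparisons F8 to F10 of 1 gradient were summed into a pool, which gave 12 pools of 22543733 to 39380640 counts. The stage labels were checked against marker genes. The summed level of 7 oocyte markers was 17479 to 20646 CPM (counts scaled to a common library size) in GV and MII transcriptomes and 33.8 to 130 CPM in those of morulae and blastocysts. Of 6 markers of trophectoderm and inner cells 5 were analysed, and their sum was 4744 to 5434 CPM in blastocyst transcriptomes and 12162 to 16749 CPM in blastocyst pools. In morulae the same markers summed to 1907 to 4785 CPM in the pools and to 137 to 333 CPM in the transcriptomes, so the morula pools stood apart from the transcriptomes of their stage, and the part of this in the morula pool results was not tested. All 4 sperm markers were at 0 in the GV, MII and 2-cell transcriptomes. They summed to 3.17 to 5.36 CPM in morula transcriptomes and to 1.45 to 5.6 CPM in blastocyst transcriptomes. The 8 markers of cumulus and granulosa cells summed to 523 to 656 CPM in GV transcriptomes and to 340 to 384 CPM in those of 2-cell embryos. In the pools they summed to 903 to 946 CPM at GV, 587 to 948 CPM at MII, 766 to 1059 CPM at 2-cell and 16.8 to 34 CPM in morulae. Their part in the values below was not tested.

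A gene was called where the adjusted p of edgeR's quasi-likelihood test (Benjamini-Hochberg over the 14612 genes tested) was below 0.05 and the fold change was above 2. In the transcriptomes 2 of the 10 genes were called from GV to MII, against 17.1% of all genes. From MII to 2-cell 1 was called, against 12% of all genes. From 2-cell to 8-cell 5 were called, against 50.1%, from 8-cell to morula 2, against 14.4%, and from morula to blastocyst 2, against 21.6%. The calls were 7 increases and 5 decreases, and the shares lay near those of all genes. The median log2 change of the 10 genes was -0.18, -0.10, -0.71, 0.22 and 0.31 in these comparisons, and that of all genes was 0.00, 0.00, 0.03, -0.05 and -0.01.

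In the polysome pools 1 gene was called from GV to MII (5.37% of all genes) and 2 from MII to 2-cell (8.51%). At the step to 8-cell 6 were called (46.3%), and from 8-cell to morula 2 (36.2%). From morula to blastocyst none of the 10 was called by edgeR's quasi-likelihood test, its likelihood ratio test or DESeq2, 4 had an unadjusted p under 0.05, and 13.9% of all genes were called. This depended on the fractions pooled: CEP192 was called there with a pool of F7 to F10 (log2 -2.19) and TUBGCP5 with one of F9 and F10 (2.06). The median log2 change of the 10 genes was 0.02, -0.38, -1.15, 0.06 and -0.53, and that of all genes 0.00, 0.00, -0.26, 0.00 and -0.02. The step from 2-cell to 8-cell held 5 decreases and 1 increase.

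TUBG1 encodes gamma-tubulin. Its transcriptome level was 182, 138 and 148 CPM in GV oocytes A, B and C, 140, 193 and 229 CPM at MII, and 109, 59.6 and 85.4 CPM at 2-cell. At 8-cell it was 66.9, 60.3 and 77.7 CPM, in morulae 79, 93.5 and 69.4 CPM, and in blastocysts 103, 79.2 and 94.6 CPM. GV and MII oocytes overlapped each other and lay above all 4 embryo stages, whose neighbours in the order of levels overlapped. The mean fell from 187 ± 44.6 CPM at MII to 84.6 ± 24.5 CPM at 2-cell (SD, n = 3). The log2 change was -1.15 (SE 0.26, edgeR adjusted p = 0.00359), and it was -0.95 and no longer called without 2-cell transcriptome B.

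The polysome pools of TUBG1 followed another course. They held 338 and 400 CPM at GV, 4173 and 3182 CPM at MII, and 823 and 621 CPM at 2-cell. At 8-cell they held 446 and 526 CPM, in morulae 301 and 570 CPM, and in blastocysts 290 and 288 CPM. Both MII pools lay above every other pool. TUBG1 in the pools rose 9.96-fold from GV to MII (log2 3.32, SE 0.342, edgeR adjusted p = 4.23e-06) and fell by 2.35 on the log2 scale from MII to 2-cell (SE 0.329, edgeR adjusted p = 0.00012). The change in the pools from GV to MII exceeded that in the transcriptome by 3.05 on the log2 scale (SE 0.415, edgeR adjusted p = 2.56e-05). These TUBG1 calls in the pools were kept in every fit that left out 1 library. The 7 oocyte markers summed to 13634 to 21726 CPM in GV pools and to 48353 to 70969 CPM in MII pools, and the part of that increase in the TUBG1 result was not tested.

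The MII increase of TUBG1 was not confined to heavy fractions. At GV the level by fraction was highest in F2, at 2052 CPM in gradient A and 1634 CPM in gradient B, and ran from 235 to 719 CPM in the other fractions of both gradients. At MII F2 again was highest, at 7037 and 7775 CPM, and the other fractions ran from 1456 to 5613 CPM. Every MII fraction library lay above every GV library of the same fraction. A pool of F1 to F7 in place of F8 to F10 (an alternative added after the data were seen) gave a TUBG1 log2 change from GV to MII of 2.31 and a difference from the transcriptome change of 2.01, with edgeR adjusted p of 3.16e-05 and 0.00116. F8 to F10 held 15.6% and 19% of the summed TUBG1 profile at GV in gradients A and B and 28.8% and 24.6% at MII. The median of all genes tested was 29% and 28.2% at GV and 28.2% and 27% at MII. Without TMM factors the TUBG1 shares were 19.9% and 23.2% at GV and 29.3% and 25.6% at MII. Each fraction library is scaled to a common size, so these are not shares of the TUBG1 mRNA in a lysate.

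**Figure D1:**
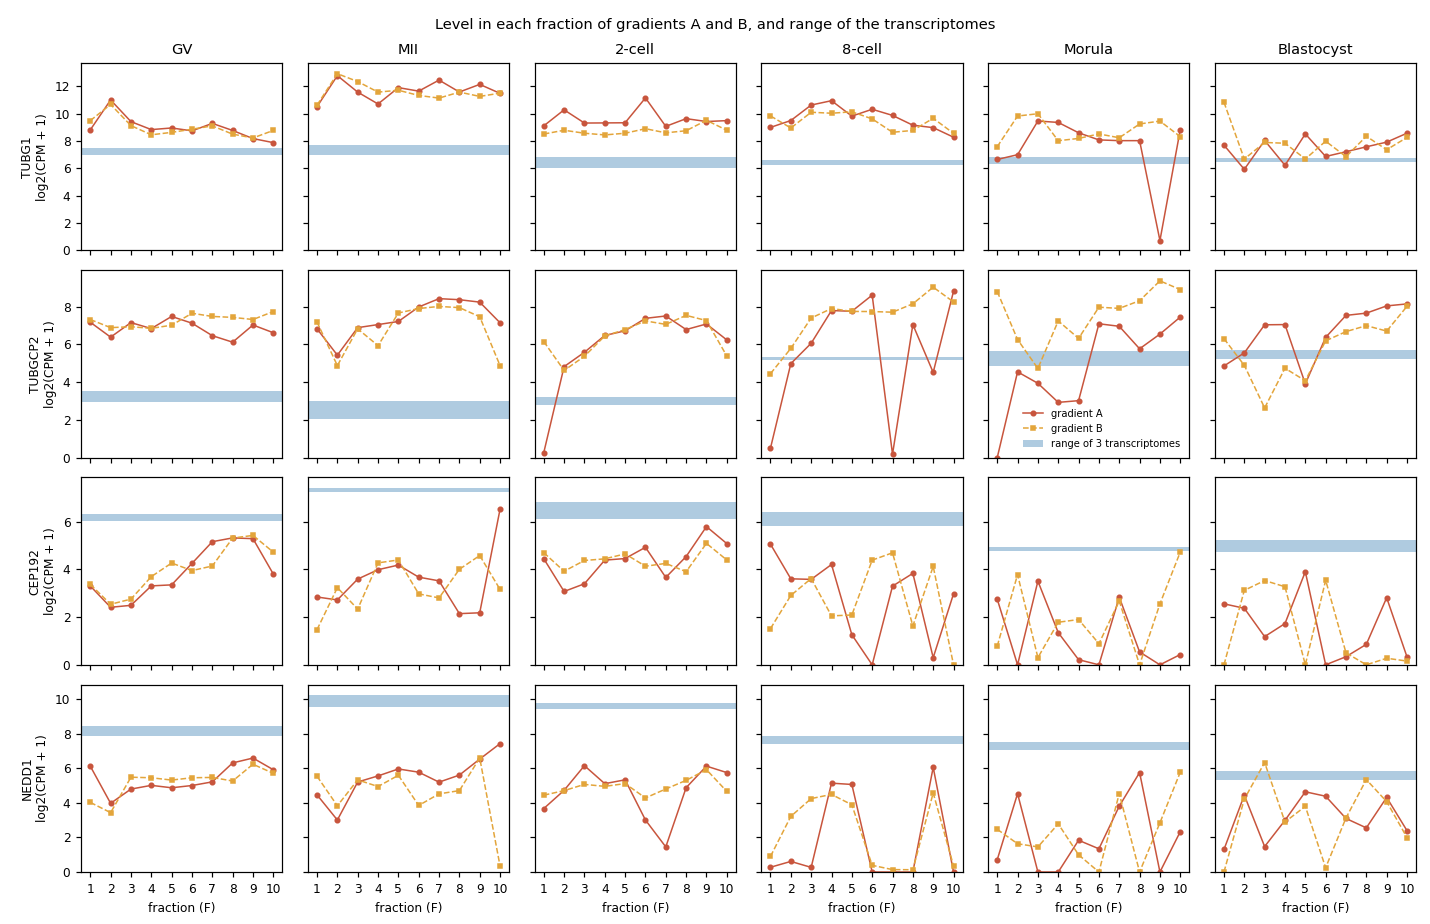
Level of TUBG1, TUBGCP2, CEP192 and NEDD1 (panels from top to bottom) at the 6 stages (panels from left to right), as log2(CPM + 1) on the y axis against fractions F1 to F10 on the x axis, with 1 line for each of gradients A and B and a blue band for the range of the 3 transcriptomes. TUBG1 peaks in F2 at GV (2052 and 1634 CPM) and MII (7037 and 7775 CPM), and the CEP192 lines lie below the band in every panel.

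TUBG1 has a close paralogue, TUBG2, and reads of one may have been counted for the other, so the split between them is uncertain. TUBG2 levels in the transcriptome were 370, 462 and 614 CPM at 2-cell and 20.8, 10.9 and 24.6 CPM at 8-cell, and the mean fell by 4.68 on the log2 scale (SE 0.391, edgeR adjusted p = 1.17e-09). In the pools TUBG2 had 1189 and 1355 CPM at GV and 2998 and 1742 CPM at MII, and its log2 change of 0.90 was not called (SE 0.412, edgeR adjusted p = 0.234). The difference between the GV to MII changes of TUBG1 and TUBG2 was not tested.

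TUBGCP2 joins TUBGCP3 and gamma-tubulin in the small complex. In the transcriptomes TUBGCP2 stood at 10.9, 7.38 and 8.72 CPM at GV, 7.67, 7.2 and 3.33 CPM at MII, and 7.76, 7.91 and 5.87 CPM at 2-cell. It was 29.8, 28.8 and 31.4 CPM at 8-cell, 40.2, 38.5 and 24.2 CPM in morulae, and 35, 45.4 and 45.6 CPM in blastocysts. The stages from 8-cell on lay above the earlier ones with no overlap. From 2-cell to 8-cell TUBGCP2 rose 4.18-fold in the transcriptome (log2 2.06, SE 0.41, edgeR adjusted p = 0.000211). In the pools the same step gave a log2 change of 1.02 (SE 0.479, edgeR adjusted p = 0.0804) and was not called. With a pool of F9 and F10 it was 1.49 and was called. The TUBGCP2 pools held 104 and 197 CPM at GV, 308 and 191 CPM at MII and 119 and 146 CPM at 2-cell. At 8-cell the pools held 184 and 356 CPM, in morulae 140 and 512 CPM, and in blastocysts 269 and 179 CPM. Stages that were neighbours in the order of mean level overlapped, but both 2-cell pools lay below both pools at MII, at 8-cell and in blastocysts.

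TUBGCP3 is the partner of TUBGCP2 in that complex. Its transcriptome level was 14.3, 11.4 and 13.6 CPM at GV, 16.4, 10.3 and 4.64 CPM at MII and 16.3, 18.3 and 23.6 CPM at 2-cell. It was 9.25, 13.4 and 9.39 CPM at 8-cell, 33.3, 49.8 and 50.6 CPM in morulae and 138, 187 and 198 CPM in blastocysts. The last 2 stages stood apart from the rest and from each other. TUBGCP3 rose 4.17-fold from 8-cell to morula (log2 2.06, SE 0.418, edgeR adjusted p = 0.00145) and 3.91-fold from morula to blastocyst (log2 1.97, SE 0.414, edgeR adjusted p = 0.0011).

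The TUBGCP3 pools held 33.3 and 27.5 CPM at GV, 36.1 and 14.2 CPM at MII and 112 and 125 CPM at 2-cell. At 8-cell they held 26.3 and 35 CPM, in morulae 135 and 58 CPM and in blastocysts 54.3 and 35.5 CPM. The 2-cell pools lay above all pools other than morula A. TUBGCP3 rose in the pools by log2 2.24 from MII to 2-cell (SE 0.511, edgeR adjusted p = 0.00725), fell by 1.95 on the log2 scale to 8-cell (SE 0.505, edgeR adjusted p = 0.0031) and rose by 1.66 to morula (SE 0.501, edgeR adjusted p = 0.0125). The first of these was 1.70 and not called without MII gradient B, and the last was 0.93 without morula gradient A and 1.46 without 8-cell gradient A, again not called. With the pools fitted alone these changes were 2.20, -1.90 and 1.77, and none was called. From morula to blastocyst the change in the TUBGCP3 pools was 3.07 below that in the transcriptome on the log2 scale, written as -3.07 (SE 0.647, edgeR adjusted p = 0.00354), and this call was kept in every fit that left out 1 library.

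TUBGCP4 is a ring protein that binds gamma-tubulin directly. In the transcriptomes TUBGCP4 stood at 61.3, 44.8 and 49.1 CPM at GV, 32.7, 39.9 and 34.4 CPM at MII, and 63.7, 52.4 and 46.6 CPM at 2-cell. It was 12, 4.57 and 5.48 CPM at 8-cell, 5.6, 2.68 and 3.23 CPM in morulae and 7.94, 9.54 and 8.4 CPM in blastocysts. The first 3 stages lay above the last 3 with no overlap. From 2-cell to 8-cell TUBGCP4 fell 7.37-fold in the transcriptome (log2 -2.88, SE 0.493, edgeR adjusted p = 3.69e-05) and 10.1-fold in the pools (log2 -3.33, SE 0.612, edgeR adjusted p = 0.000123). The pools held 86.7 and 50.6 CPM at 2-cell and 11 and 2.71 CPM at 8-cell, and both falls were called in every fit that left out 1 library. From 8-cell to morula the TUBGCP4 pool change was log2 1.28 and not called. It was called with a replicate block (1.51) and a pool of F7 to F10 (1.46), and in the other direction with a pool of F1 to F7 (-1.61). In morulae the TUBGCP4 pools held 9.11 and 23.9 CPM and in blastocysts 8.83 and 4.94 CPM. The morula to blastocyst change in these pools was below that in the transcriptome, at log2 -2.43 (SE 0.749, edgeR adjusted p = 0.0347), but the call was lost in 7 of 10 fits that left out 1 library, and the value was -1.57 without morula gradient B.

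TUBGCP5 occurs at few positions in the ring. Its transcriptome level was 54.2, 55.2 and 52 CPM at GV, 101, 123 and 155 CPM at MII and 74.7, 95 and 81.9 CPM at 2-cell, and from 42.2 to 68.6 CPM in the 9 libraries of the later stages. MII lay above every other stage, and 2-cell above the remaining 4. The increase from GV to MII was log2 1.23 (SE 0.41, edgeR adjusted p = 0.0359), and it lost its call in 5 of 6 fits that left out 1 library, with values of 1.07 to 1.25. In the pools TUBGCP5 had 39.3 and 32.2 CPM at GV and 18.9 and 19 CPM at MII, a log2 change of -0.92 that was not called (SE 0.498, edgeR adjusted p = 0.345). The difference between the pool and transcriptome changes was -2.15 (SE 0.646, edgeR adjusted p = 0.0327), and this call was lost in 9 of 10 fits that left out 1 library, with values of -2.29 to -1.98.

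TUBGCP6, the largest ring protein, was near the limit of detection in oocytes. The 3 GV transcriptomes held 8, 8 and 0 counts, the MII transcriptomes 0, 1 and 1 count, and the 2-cell transcriptomes 3, 5 and 4 counts. Levels were then 2.74, 4.93 and 3.48 CPM at 8-cell, 4.48, 5.54 and 4.31 CPM in morulae and 13.2, 25.3 and 18.4 CPM in blastocysts. Each of these stages lay above the oocytes and the 2-cell embryos. The increase from 2-cell to 8-cell was log2 3.56 (SE 1.13, edgeR adjusted p = 0.0112). In the pools the 8-cell gradients disagreed, with 4 counts (0.164 CPM) in gradient A and 2307 counts (62.5 CPM) in gradient B, against 4.03 and 2.15 CPM at 2-cell. The called TUBGCP6 pool change from 2-cell to 8-cell, log2 3.34 (SE 1.28, edgeR adjusted p = 0.0351), rested on gradient B, and it was -4.18 without that gradient. With the pools fitted alone it was 3.38 and not called.

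NEDD1 brings the ring to the centrosome and to spindle microtubules. In the transcriptomes NEDD1 stood at 246, 379 and 270 CPM at GV, 829, 990 and 1318 CPM at MII and 787, 858 and 682 CPM at 2-cell. It was 146, 176 and 187 CPM at 8-cell, 149, 113 and 156 CPM in morulae and 37.6, 44.8 and 53.8 CPM in blastocysts. MII overlapped 2-cell, 8-cell overlapped morulae, and blastocysts lay below all other stages. NEDD1 rose 3.51-fold from GV to MII (log2 1.81, SE 0.342, edgeR adjusted p = 0.000404), fell 4.57-fold from 2-cell to 8-cell (log2 -2.19, SE 0.347, edgeR adjusted p = 1.38e-05) and fell 3.07-fold from morula to blastocyst (log2 -1.62, SE 0.344, edgeR adjusted p = 0.00122). These 3 calls were kept in every fit that left out 1 library.

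The NEDD1 pools held 82.7 and 59.3 CPM at GV, 122 and 55.3 CPM at MII and 58.3 and 48 CPM at 2-cell. They held 23.5 and 8.4 CPM at 8-cell, 24.4 and 20.3 CPM in morulae and 10.5 and 20.9 CPM in blastocysts. The first 3 stages lay above the last 3. The pools fell from 2-cell to 8-cell by 1.74 on the log2 scale (SE 0.42, edgeR adjusted p = 0.00177), and no other step in the NEDD1 pools was called. The value was -1.26 with a pool of F9 and F10 and -1.67 with the pools fitted alone, and neither was called.

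CDK5RAP2 carries the motif that binds and activates the ring. Its transcriptome level was 13.4, 11 and 11.7 CPM at GV, 7.67, 8.31 and 11.9 CPM at MII, and 15.1, 17.1 and 14.4 CPM at 2-cell. It was 5.83, 5.83 and 6.09 CPM at 8-cell, 14.8, 20.2 and 14.9 CPM in morulae and 33.2, 36.3 and 30.4 CPM in blastocysts. The 8-cell libraries lay below all the others and the blastocysts above them. CDK5RAP2 fell from 2-cell to 8-cell by 1.39 on the log2 scale (SE 0.483, edgeR adjusted p = 0.0187) and rose by 1.49 to morula (SE 0.484, edgeR adjusted p = 0.0375). The fall was -1.32 without 2-cell transcriptome B and -1.38 without 8-cell transcriptome B, with neither called, and the CDK5RAP2 increase lost its call in all 6 fits that left out 1 library, with values of 1.33 to 1.57. It was 1.36 and not called with RLE size factors.

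In the pools CDK5RAP2 had 2.89 and 11.3 CPM at 2-cell, 1.93 and 1.17 CPM at 8-cell, and 7.61 and 20.2 CPM in morulae. Both 8-cell pools lay below those of the stages before and after. The log2 change was -2.20 into the 8-cell stage (SE 0.607, edgeR adjusted p = 0.00506) and 3.17 out of it (SE 0.63, edgeR adjusted p = 0.000496). The CDK5RAP2 decrease was -0.90 and not called without 2-cell gradient B, while the increase was kept in every fit that left out 1 library. With the pools fitted alone the decrease was -2.13 and the increase 3.19, and neither was called.

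PCNT is the large pericentriolar scaffold that anchors rings. In the transcriptomes PCNT stood at 20.7, 18.3 and 21.8 CPM at GV, 16.4, 27.4 and 15.7 CPM at MII and 17.4, 14 and 12.4 CPM at 2-cell. It was 6.34, 12.2 and 11.4 CPM at 8-cell, 27.9, 19.8 and 16.1 CPM in morulae and 12.9, 31.3 and 18.2 CPM in blastocysts. No stage-to-stage change of PCNT was called in the transcriptome or the pools by edgeR's quasi-likelihood test over all 30 libraries. With the transcriptomes fitted alone the PCNT change from 8-cell to morula, log2 1.09, was called, as was that in pools of F1 to F7, log2 -1.35. The 8-cell PCNT pools were 40.2 CPM in gradient A and 2.79 CPM in gradient B, and the single fraction F9 of gradient A reached 113 CPM.

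CEP192 recruits PCNT and the mitotic kinases that ripen a spindle pole. In the transcriptomes CEP192 stood at 76.1, 86.3 and 69.2 CPM at GV, 189, 163 and 164 CPM at MII and 109, 91.8 and 66.8 CPM at 2-cell. It was 46.9, 68.6 and 52.5 CPM at 8-cell, 21.8, 21.9 and 25.7 CPM in morulae and 24.7, 27.4 and 34.6 CPM in blastocysts. MII lay above all other stages, and morulae and blastocysts lay below the earlier ones. By edgeR's quasi-likelihood test over all 30 libraries no step in the CEP192 transcriptome was called, and the log2 change from GV to MII was 1.16 (SE 0.669, edgeR adjusted p = 0.26). With the transcriptomes fitted alone CEP192 was called from GV to MII, at log2 1.15, and from 8-cell to morula, at -1.27. In the pools CEP192 had 42.4 and 26.1 CPM at 2-cell and 6.19 and 6.53 CPM at 8-cell, and fell by 2.43 on the log2 scale (SE 0.855, edgeR adjusted p = 0.0231). That call was lost in 3 of 4 fits that left out 1 library, with values of -2.46 to -2.03. With the pools fitted alone the CEP192 change was -2.37 and not called.

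**Figure D2:**
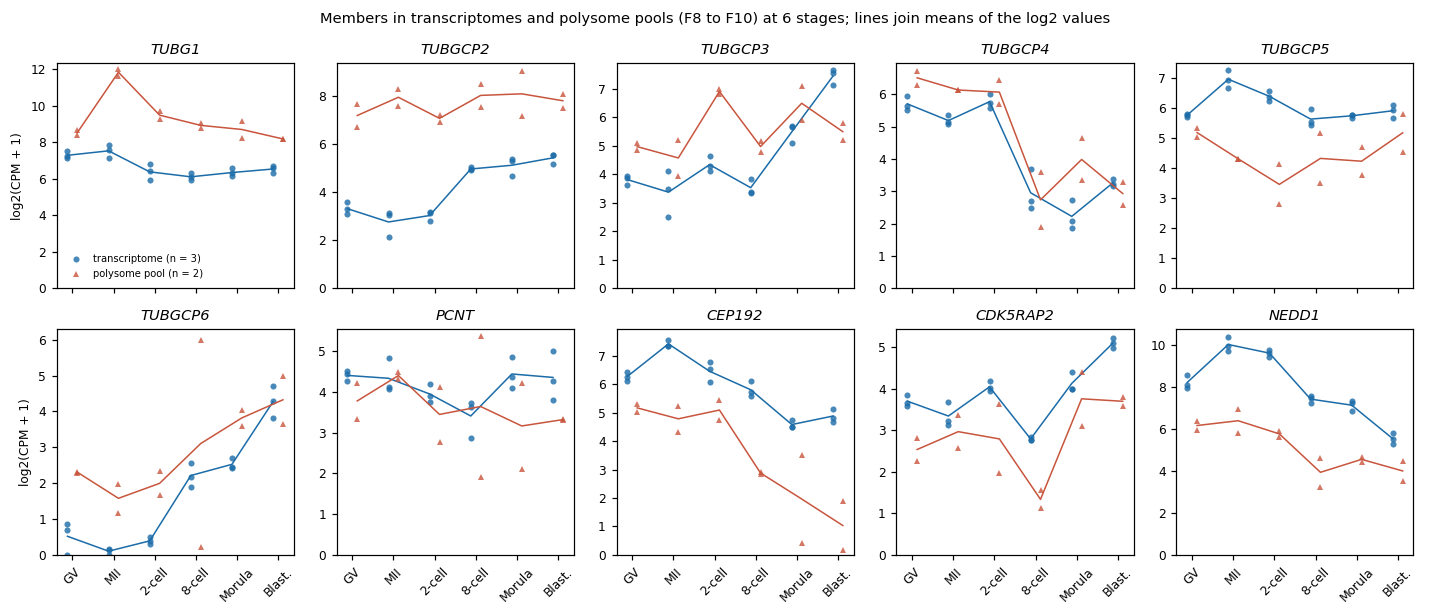
Level of each of the 10 genes as log2(CPM + 1) on the y axis by stage on the x axis, with each transcriptome as a blue circle (n = 3) and each polysome pool of F8 to F10 as a red triangle (n = 2), and lines through the means of the log2 values. The TUBG1 pools at MII (4173 and 3182 CPM) stand above its other pools, and the 8-cell TUBGCP6 pools lie far apart (0.164 and 62.5 CPM).

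Whether stage changes differed between pools and transcriptomes was tested as an interaction, with the same libraries as the comparisons above. From GV to MII 2 of the 10 genes were called, TUBG1 and TUBGCP5, against 10.6% of all genes, and from morula to blastocyst 2, TUBGCP3 and TUBGCP4, against 12.3%. The likelihood ratio test and DESeq2 each called 3 genes from GV to MII and 2 from morula to blastocyst. The added gene was NEDD1, at log2 -1.49 and -1.59, and it was also called with pools of F7 to F10 (-1.60) and of F1 to F7 (-2.01). None was called by the quasi-likelihood test at the 3 steps between MII and morula, against 1.81%, 12.1% and 12.4% of all genes. At an unadjusted p under 0.05 there were 2, 1 and 2 genes in these 3 steps, the likelihood ratio test called 0, 1 and 1, and DESeq2 called 0, 0 and 1. The likelihood ratio test called TUBGCP5 from 2-cell to 8-cell (1.76) and TUBGCP4 from 8-cell to morula (2.22), and DESeq2 called TUBGCP4 (2.23). TUBGCP4 was also called there with RLE size factors (2.22), a replicate block (2.42) and pools of F7 to F10 (2.39). From morula to blastocyst, pools of F7 to F10 added a call of CEP192 (-2.51) and ended that of TUBGCP4 (-1.95). The median interaction of the 10 genes was 0.38, -0.52, -0.36, -0.14 and -1.03 over the 5 steps in order, and that of all genes was 0.00, 0.00, -0.23, 0.08 and -0.12.

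Within a stage the genes split by whether the polysome pools lay above or below the whole transcriptome. The scale is relative, so a positive value says that a gene made up a larger share of the pool library than of the transcriptome library. At GV 5 of the 10 genes were called, against 38.6% of all genes, at MII 7 (56.6%), at 2-cell 6 (49.8%), at 8-cell 8 (57.7%), in morulae 7 (50.4%) and in blastocysts 6 (38.9%). Of the 39 calls 22 were higher and 17 lower in the pools. With RLE size factors in place of TMM the median difference of all genes moved by -0.24 at 8-cell, -0.17 at 2-cell, -0.15 in blastocysts and -0.11 in morulae, and no call of the 10 genes changed direction. The median log2 difference of the 10 genes was 0.12, 0.49, -0.02, 0.50, 0.43 and -0.92 from GV to blastocyst, beside 0.00, 0.00, 0.18, -0.26, 0.00 and -0.08 for all genes.

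TUBG1 and TUBGCP2 were higher in the pools at all 6 stages. For TUBG1 the log2 difference was 1.24 at GV, 4.29 at MII, 3.09 at 2-cell, 2.83 at 8-cell, 2.43 in morulae and 1.65 in blastocysts, with edgeR adjusted p from 3.32e-11 to 0.00107. For TUBGCP2 it was 4.06, 5.36, 4.21, 3.17, 3.25 and 2.41, with edgeR adjusted p from 1.74e-09 to 0.000109. In both genes the pools did not overlap the transcriptomes at any stage, and every one of these 12 calls was kept when 1 library was left out. With a pool of F9 and F10 the TUBG1 value at GV was 0.99 and not called.

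TUBGCP3 was higher in the pools from GV to morula, at log2 1.22, 1.27, 2.61, 1.52 and 1.11, and lower in blastocysts at -1.96 (SE 0.48, edgeR adjusted p = 0.0023). The blastocyst pools of 54.3 and 35.5 CPM lay below transcriptomes of 138 to 198 CPM. The TUBGCP3 calls at 2-cell, 8-cell and blastocyst were kept in every fit that left out 1 library. The call at GV was lost in all 5 such fits (1.07 to 1.35), the call at MII was lost in 3 of 5 and was 0.38 without MII gradient A, and the morula call was lost in 4 of 5 and was 0.36 without morula gradient A. With RLE size factors the morula value was 0.98 and not called.

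TUBGCP6 was called higher in the pools at GV, MII, 2-cell and 8-cell, at log2 3.02, 4.70, 3.29 and 3.08. At MII 117 counts in the pools stood against 2 counts in the transcriptomes, a ratio of 28.3 with an exact 95% interval of 7.67 to 237 that covers counting error only. The TUBGCP6 call at GV was lost in all 5 fits that left out 1 library (2.46 to 3.60), the 2-cell call in 3 of 5, and the 8-cell value was -4.44 without 8-cell gradient B. TUBGCP4 was called in morulae alone, at log2 2.10 (SE 0.517, edgeR adjusted p = 0.0017), and that value was 1.24 and not called without morula gradient B.

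NEDD1, CEP192 and TUBGCP5 showed calls in the lower direction only. NEDD1 was lower in the pools at all 6 stages, with log2 differences of -2.07, -3.56, -3.87, -3.41, -2.64 and -1.53 from GV to blastocyst and edgeR adjusted p from 1.33e-07 to 0.00355. Its blastocyst value was -1.14 and not called without blastocyst gradient A. TUBGCP5 was lower at MII (-2.74), 2-cell (-2.90), 8-cell (-1.14) and in morulae (-1.49). The TUBGCP5 8-cell value was -0.51 without 8-cell gradient B and the morula value -1.10 without morula gradient A, with neither called. CEP192 was lower at MII (-2.61), at 8-cell (-3.14), in morulae (-2.10) and in blastocysts (-4.35), with edgeR adjusted p from 0.000599 to 0.0327. The CEP192 value was -2.25 without MII gradient B, and in morulae it was -1.18 without gradient A and -2.04 without transcriptome C, with none of the 3 called. With a pool of F9 and F10 the morula value of CEP192 was -1.70 and not called. CDK5RAP2 was lower at 8-cell (-1.93) and in blastocysts (-1.48), and the first was -1.61 and not called without 8-cell gradient B while the second lost its call in all 5 fits that left out 1 library. At GV the CDK5RAP2 difference of -1.29 was not called (SE 0.551, edgeR adjusted p = 0.0654), but it was by the likelihood ratio test, with RLE size factors (-1.39), by DESeq2 (-1.39) and with pools of F7 to F10 (-1.32) and of F9 and F10 (-2.39). DESeq2 also called CDK5RAP2 lower at 2-cell (-1.31). PCNT was not called at any stage, with log2 differences of -1.21 to 1.10 and edgeR adjusted p from 0.191 to 1.

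**Figure D3:**
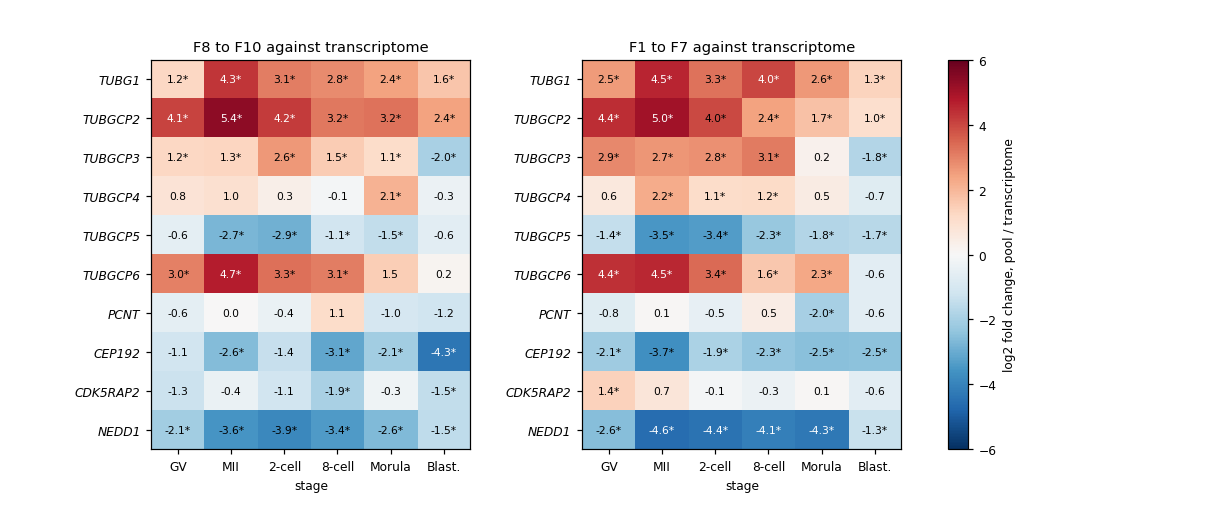
Log2 fold change of the pools against the transcriptomes of the same stage, as colour and number, for each of the 10 genes (y axis) at the 6 stages (x axis), F8 to F10 in the left panel and F1 to F7 in the right, with an asterisk for each call. TUBG1 and TUBGCP2 are positive and NEDD1 is negative in every cell of both panels, and PCNT carries 1 asterisk, in morulae on the right (-2.00).

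F1 to F7, which hold free RNA, monosomes and the intermediate zone, were also pooled in place of F8 to F10 and set against the same transcriptomes (14603 genes tested). At GV 8 of the 10 genes were called, against 56.9% of all genes, at MII 8 (64.4%), at 2-cell 8 (56.6%), at 8-cell 8 (70.8%), in morulae 7 (58.7%) and in blastocysts 6 (43.8%). TUBG1 differed by log2 2.54, 4.55, 3.27, 4.01, 2.60 and 1.32 and TUBGCP2 by 4.41, 5.04, 3.97, 2.40, 1.74 and 1.02 from GV to blastocyst. NEDD1 differed by -2.56, -4.57, -4.41, -4.09, -4.29 and -1.32, and CEP192 by -2.12, -3.67, -1.89, -2.32, -2.49 and -2.45. The median of the 10 genes was 1.0, 1.47, 0.49, 0.80, 0.17 and -0.69, beside 0.60, 0.74, 0.93, 0.16, 0.31 and -0.02 for all genes. In these 4 genes the pools of both kinds lay on the same side of the transcriptome at every stage. CEP192 in F8 to F10 was not called at GV or 2-cell. Its pools there held 31.7 and 39 CPM at GV and 42.4 and 26.1 CPM at 2-cell, below every transcriptome of the stage. With pools of F7 to F10 CEP192 was called lower at 2-cell (-1.52). Other genes did not all keep to 1 side. CDK5RAP2 at GV was called higher in F1 to F7 (log2 1.39) and stood at -1.29 in F8 to F10, TUBGCP4 at 8-cell was called higher (1.16) and stood at -0.11, and in morulae TUBGCP3 (0.25) and TUBGCP4 (0.47) were no longer called.

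Fraction by fraction, TUBG1 lay above all 3 transcriptomes of its stage in 114 of the 120 fraction libraries and below all 3 in 3. It was above in all 20 libraries at each stage from GV to 8-cell, F1 and F2 included. The lowest TUBG1 level was 0.652 CPM, in F9 of morula gradient A. TUBGCP2 lay above in 101 libraries and below in 18, TUBGCP3 above in 79 and below in 34, and TUBGCP6 above in 77 and below in 32. CEP192 was below all 3 transcriptomes in all 120 libraries, NEDD1 below in 118 and above in 1, and TUBGCP5 below in 116 and above in 0. PCNT lay below in 87 and above in 12, CDK5RAP2 below in 84 and above in 27, and TUBGCP4 above in 54 and below in 41. TUBGCP3 changed sides with the stage, since it lay above in 18 of 20 libraries at 2-cell and below in all 20 in blastocysts.

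**Figure D4:**
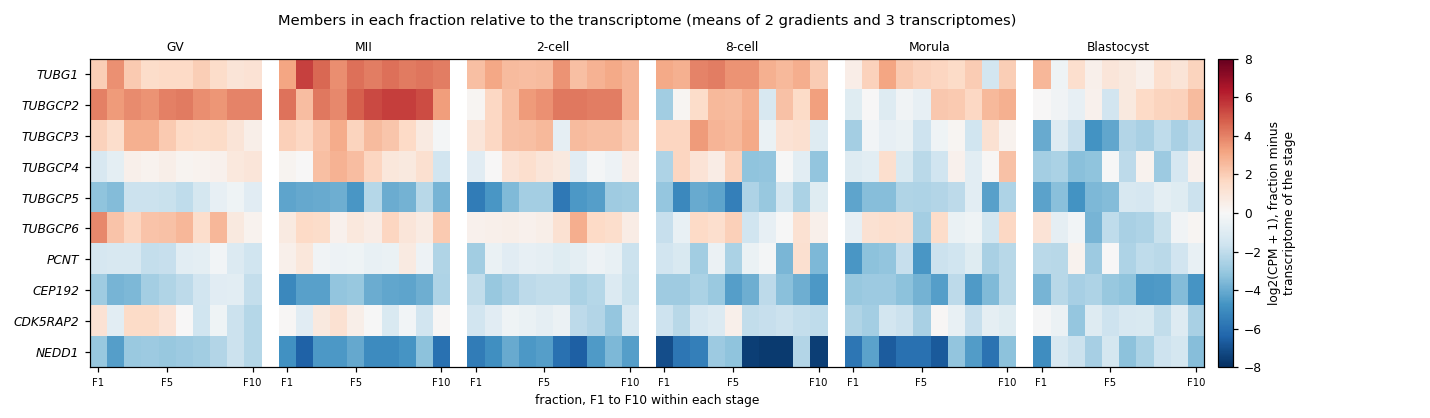
Level in each fraction minus that in the transcriptomes of the same stage, as colour, both as log2(CPM + 1) and as means of 2 gradients and of 3 transcriptomes, for the 10 genes (y axis) over F1 to F10 within each stage (x axis). CEP192, below all 3 transcriptomes in all 120 single libraries, is blue throughout. TUBGCP3 turns from red at 2-cell, other than in F6 (0.229 CPM in gradient A), to blue in blastocysts.

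The course from light to heavy fractions was measured by Spearman's rho of the level with the fraction number over F3 to F10 of both gradients, 16 libraries a stage, with p from 100000 permutations adjusted over all genes tested. At GV 4 of the 10 genes were called, against 36.9% of all genes. CEP192 rose towards heavy fractions (rho 0.75, permutation adjusted p = 0.00611), from 4.64 and 5.76 CPM in F3 to 38.2 and 42.1 CPM in F9 of gradients A and B. NEDD1 rose as well (rho 0.64, permutation adjusted p = 0.0289), and the value was 0.53 and not called with RLE size factors. CDK5RAP2 fell (rho -0.89, permutation adjusted p = 0.000238), from 33.1 and 37.3 CPM in F3 to 1.4 and 1.69 CPM in F10, and TUBGCP3 fell (rho -0.83, permutation adjusted p = 0.000859).

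At MII 2 genes were called, against 19.6% of all genes. TUBGCP4 fell from 193 and 165 CPM in F3 to 55.7 and 1.35 CPM in F10 (rho -0.83, permutation adjusted p = 0.00225), and its highest level was in F4 of both gradients, at 275 and 188 CPM. CDK5RAP2 fell with rho -0.66 (permutation adjusted p = 0.0372). At 8-cell 2 were called, against 15.1%. TUBG1 fell (rho -0.83, permutation adjusted p = 0.00297) from 1585 and 1099 CPM in F3 to 310 and 377 CPM in F10, and TUBGCP3 fell (rho -0.82, permutation adjusted p = 0.00336). At 2-cell, in morulae and in blastocysts none of the 10 genes was called by this permutation test, against 20.9%, 1.96% and 7.83% of all genes, and 1, 1 and 3 had an unadjusted p under 0.05. With ranks taken within each gradient 1 gene was called at each of these 3 stages.

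None of the 8 trend calls stood in each gradient by itself. With gradient B left out 1 gene was called, CDK5RAP2 at GV, and with gradient A left out 2, TUBGCP3 at GV and TUBGCP4 at 2-cell, the latter not among the 8. In gradient A alone none of all the genes tested was called at 8-cell, so the TUBG1 and TUBGCP3 calls there could not be kept. Each gradient by itself has 8 libraries, and rho in gradients A and B was -0.90 and -0.76 for TUBG1 and -0.88 and -0.86 for TUBGCP3 at 8-cell, -0.86 and -0.81 for TUBGCP4 and -0.62 and -0.74 for CDK5RAP2 at MII. At GV it was 0.74 and 0.86 for CEP192, -0.81 and -0.93 for TUBGCP3, -0.95 and -0.79 for CDK5RAP2, and 0.86 and 0.31 for NEDD1.

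Over F1 to F10, with the free RNA included, rho was -0.06 for TUBGCP4 and -0.34 for CDK5RAP2 at MII, -0.46 for TUBG1 and -0.41 for TUBGCP3 at 8-cell, and -0.42 for TUBGCP3 at GV, and none of these 5 was called. At GV, TUBG1 (-0.68), TUBGCP4 (0.68), TUBGCP5 (0.76) and TUBGCP6 (-0.59) were called over F1 to F10 and not over F3 to F10. So were TUBGCP2 (0.69) and TUBGCP5 (0.61) in blastocysts. Over F3 to F9 NEDD1 at GV was 0.53 and not called. That span added calls of TUBGCP2 at MII (0.76) and of TUBGCP2 (0.79), TUBGCP4 (-0.84) and CDK5RAP2 (-0.77) at 2-cell. The 8 trend calls became 9 over F1 to F10 and 11 over F3 to F9.

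Among all genes called at a stage the share that rose moved with the scaling: it was 49.2%, 51.9%, 42.7%, 56.6% and 78.1% at GV, 2-cell, 8-cell, morula and blastocyst with TMM factors, and 37.6%, 39.5%, 22.7%, 41.8% and 58.3% with RLE size factors. At GV it was 59.8% on library totals.

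Patterns over the 12 group means (6 transcriptomes and 6 pools, which share the stages) were compared as a description. The genes most like TUBG1 among all those in the model were GEMIN8 (Pearson r = 0.96), WDR54 (0.95) and FLYWCH2 (0.94). Among the 10 genes CEP192 and NEDD1 were most alike (0.90). The other closest partners were NEDD1 for TUBGCP5 (0.73), TUBGCP6 for TUBGCP3 (0.72) and for TUBGCP2 (0.70), TUBGCP2 for TUBG1 (0.69), CEP192 for PCNT (0.59) and for TUBGCP4 (0.50), and TUBGCP5 for CDK5RAP2 (0.48).

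Other genes of spindle assembly were followed as lists through the step from 2-cell to 8-cell, at which 50.1% of all genes were called in the transcriptome. There 2 of 8 augmin genes, whose complex nucleates microtubules from the sides of other microtubules, rose and 2 fell. HAUS2 moved furthest, from 67.3, 82.8 and 41.7 CPM to 224, 344 and 352 CPM (log2 2.26, SE 0.317, edgeR adjusted p = 2.72e-06). Of the 9 other ring and tethering genes analysed 2 rose and 5 fell, TUBG2 furthest. Of 18 pole assembly factors 5 rose and 7 fell. AURKA, the kinase of maturing spindle poles, fell furthest, from 5791 to 6353 CPM at 2-cell to 384 to 738 CPM at 8-cell (log2 -3.43, SE 0.378, edgeR adjusted p = 7.9e-08). Of 23 centriole duplication genes 15 fell and none rose, and CEP250, a linker of centriole pairs, fell furthest among those called (log2 -2.90, SE 1.01, edgeR adjusted p = 0.0191). The genes called were 4 of 8, 7 of 9, 12 of 18 and 15 of 23, and whether a list differed from all genes was not tested. The list medians were -0.13, -1.44, -0.80 and -1.91, beside 0.03 for all genes and -0.71 for the 10 genes.

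In the 8-cell pools against the 8-cell transcriptomes 2 augmin genes were higher and 3 lower, 3 and 5 of the other ring and tethering genes, 6 and 9 of the pole assembly factors, and 2 and 14 of the centriole duplication genes. That is 5 of 8, 8 of 9, 15 of 18 and 16 of 23 called, beside 57.7% of all genes. The list medians were -0.62, -2.48, -1.24 and -1.54, beside -0.26 for all genes and 0.50 for the 10 genes. HAUS7, an augmin subunit, had 137 and 155 CPM in the pools and 0.87 to 2.14 CPM in the transcriptomes (log2 6.64, SE 0.683, edgeR adjusted p = 2.46e-08). KIFC1, a minus-end motor that focuses poles, had 99 and 264 CPM in the pools and 2.4 to 5.48 CPM in the transcriptomes (log2 5.66, SE 0.534, edgeR adjusted p = 6.57e-09). NIN, which anchors microtubule ends, had 0 and 0.786 CPM in the pools and 25.9 to 40.7 CPM in the transcriptomes (log2 -6.33, SE 0.828, edgeR adjusted p = 8.37e-07). CEP135, a centriole cartwheel protein, had 0.123 and 0.0813 CPM in the pools and 28.8 to 51.3 CPM in the transcriptomes (log2 -8.60, SE 1.1, edgeR adjusted p = 5.99e-07). Those CEP135 values rest on 6 counts in both pools together and 1412 in the transcriptomes, a CPM ratio of 0.00238 (exact 95% interval 0.000872 to 0.00519, counting error only). The fitted change of NIN, at 0 in pool A, depends on the prior count and is no bound.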

How the data were processed

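Expected counts per gene were estimated with Salmon (version not given in the sources used here) and deposited by the authors as 1 table of 16706 gene symbols and 138 libraries, not normalized, with 11.7% of values not whole. The submitters' processing notes name the build UMD 3.1 and the study's methods another bovine annotation, so no coordinates are given. Libraries were made by a poly(A)-primed full-length cDNA kit without molecular identifiers, and replicates were not pooled. All 138 columns were matched to samples by their labels (0 left over), and none of 78 pairs of libraries within a group was identical.

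Counts were rounded, F8 to F10 of a gradient were summed into a polysome pool, and 30 libraries in 12 groups were fitted together in edgeR 4.0.16 (R 4.3.3) with TMM factors and filterByExpr, which left 14612 genes. Its quasi-likelihood test was applied with Benjamini-Hochberg adjustment over all genes, and a call needed an adjusted p below 0.05 and a fold above 2. Levels are CPM on TMM factors of these 30 libraries, and levels by fraction on those of all 138, so values of the 2 kinds are not on 1 scale to the last digit. Trends used log2(CPM + 1) over F3 to F10 and genes whose mean reached 1 CPM. Both procedures were tested on simulated data.

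The 10 genes and the lists of related genes and markers were chosen with earlier results of these data known. All 10 genes were tested and counted in every comparison, but not every value of each gene is given. From each list the only gene named is the called gene with the largest change from 2-cell to 8-cell in the transcriptome and in 8-cell pools against transcriptomes. The alternatives were the likelihood ratio test, DESeq2 1.42.0, RLE size factors, no filter, a replicate block, libraries of 1 kind alone, other pools, other spans of fractions, CPM on library totals, and each library left out in turn, after which a lone pool is assumed to vary like the other groups. The pool of F1 to F7 was added after the data were seen.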

Additional observations from a re-analysis of the deposited data

Results flagged for a closer look

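For 4 stage changes the test of the difference between polysome pools and transcriptomes was passed, by edgeR's quasi-likelihood test with Benjamini-Hochberg adjustment. From GV to MII the change of TUBG1 was 3.05 higher in the pools on the log2 scale and that of TUBGCP5 differed by -2.15. From morula to blastocyst the difference was -3.07 for TUBGCP3 and -2.43 for TUBGCP4. The TUBG1 and TUBGCP3 results were called in every fit that left out 1 library, and the TUBGCP5 and TUBGCP4 results were lost in 9 and 7 of 10 such fits.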

How the results depend on the processing

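Of the calls of the 10 genes, 8 of 12 in the transcriptomes, 6 of 11 in the pools, 25 of 39 between pools and transcriptomes, 2 of 4 interactions and 0 of 8 trends were kept in every fit that left out 1 library. The trend fits hold 8 libraries in place of 16, and in size rho stayed between 0.62 and 0.95 in each gradient for 7 of the 8, the exception being NEDD1 at GV (0.31 in gradient B). The counts of calls ranged from 10 to 12, 9 to 15, 37 to 41, 3 to 10 (7 and 10 without 8-cell gradients A and B) and 1 to 2 in these fits. Fitting libraries of 1 kind alone gave 19 transcriptome and 3 pool calls, with 8 pool calls lost at like values: TUBGCP3 from MII to 2-cell (2.20), TUBGCP3 (-1.90), CDK5RAP2 (-2.13), CEP192 (-2.37), NEDD1 (-1.67) and TUBGCP6 (3.38) from 2-cell to 8-cell, and TUBGCP3 (1.77) and CDK5RAP2 (3.19) from 8-cell to morula. The 4 interactions became 7 with the likelihood ratio test, 7 with a pool of F7 to F10, 2 with F9 and F10 and 13 with F1 to F7. The cause of these differences was not tested.

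Replicate letters are not taken as pairs: 1 of 26 same-letter pairs had a correlation over 0.1 (-0.345 to 0.13), and in 9 of 30 comparisons a library was closest to its own letter. With the replicate block 11, 11, 34 and 5 calls were found, and 10 trends with ranks within gradients. The block ended the calls of TUBGCP5 and TUBGCP6 at 8-cell, CEP192 and TUBGCP3 in morulae and CDK5RAP2 in blastocysts between pools and transcriptomes, of TUBGCP6 in the pools from 2-cell to 8-cell, of CDK5RAP2 in the transcriptome from 8-cell to morula, and of the NEDD1 trend at GV.

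Directions turned in a few results. With F1 to F7, TUBGCP4 was -1.61 and TUBGCP3 -0.82 from 8-cell to morula in the pools, NEDD1 was 1.37 from morula to blastocyst, and against the transcriptome CDK5RAP2 was 1.39 at GV and TUBGCP4 1.16 at 8-cell. Without 8-cell gradient B, TUBGCP6 was -4.18 from 2-cell to 8-cell in the pools, 6.28 from 8-cell to morula, 5.91 as an interaction there and -4.44 against the transcriptome, beside 4.34, -2.24, -2.60 and 4.07 without gradient A. Without morula gradient B the CEP192 interaction from 8-cell to morula was -2.92, beside 1.98 without gradient A.

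Counts over all genes moved by over 1.5 times in some settings. The likelihood ratio test and DESeq2 gave 1312 and 1361 pool calls from GV to MII in place of 784, 2026 and 2090 from MII to 2-cell in place of 1244, and 690 and 813 interactions there in place of 264, which became 171 with the block and 422 with F7 to F10. Libraries of 1 kind alone gave 4721, 3425, 4463 and 5561 transcriptome calls in place of 2497, 1748, 2097 and 3163 (the 2-cell to 8-cell step stayed within that bound), and 4, 26, 2354, 1073 and 29 pool calls in place of 784, 1244, 6759, 5293 and 2034. F1 to F7 gave 1826 and 3688 pool calls from GV to MII and morula to blastocyst, and 2617, 1216, 4711, 3852 and 3510 interactions in place of 1553, 264, 1775, 1819 and 1792. Trends over F1 to F10 numbered 1219, 1237, 862 and 1611 at MII, 2-cell, 8-cell and blastocyst, in place of 2263, 2399, 1826 and 877, and over F3 to F9 1137, 81 and 536 at 8-cell, morula and blastocyst, the second in place of 228. In gradient B alone the trends numbered 1916, 102, 1196, 278, 0 and 0 from GV to blastocyst and in gradient A alone 1100, 546, 0, 0, 0 and 13. RLE size factors moved the median of all genes by 0.12 (GV to MII) and -0.13 (8-cell to morula) in the transcriptomes and by -0.16 in the pools from 2-cell to 8-cell. Without the filter 61.5% of the transcriptome calls from MII to 2-cell were increases (50.2% with it), and 26.6% of the interactions there (40.2% with it). With DESeq2 49.4% of the GV to MII transcriptome calls were increases (38.7% in edgeR) and 56.9% of the interactions (67.2%). Leaving out 1 library gave 211 and 332 pool calls from GV to MII (without GV gradients A and B), 525, 614 and 567 from MII to 2-cell (without MII gradient B and 2-cell gradients A and B) and 1033 from morula to blastocyst (without blastocyst gradient B). It gave 1132 transcriptome calls from MII to 2-cell without the 2-cell transcriptome C. The interactions became 811 from GV to MII without GV gradient A, 103 to 166 from MII to 2-cell without either 2-cell gradient or any MII or 2-cell transcriptome, 1159 and 4554 from 2-cell to 8-cell without 2-cell gradient B and 8-cell gradient B, 4217 and 3455 from 8-cell to morula without 8-cell gradient B and morula gradient B, and 1009 from morula to blastocyst without blastocyst gradient B.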
